A study of Mus musculus with 4 samples.

Results

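The transcripts described here encode the Myc-Max network of transcription factors, chosen by name as Myc, Mycn, Max, Mlx, Mxd1, Mxi1, Mxd3, Mxd4, Mnt and Mga. All 10 genes had a row of their own among the 18169 rows of the expression table, and 9 of them reached a mean of 1 TPM over the samples. TPM is an abundance corrected for transcript length, so that levels of different genes can be set side by side. RNA was sequenced from primary neural stem/progenitor cells (NSCs) of C57BL/6 mice, 2 cultures of wild-type (+/+) and 2 of Chd5-/- genotype, which lacks the chromatin remodeler Chd5. Each culture was grown with epidermal growth factor and fibroblast growth factor 2 from the tissue around the ventricles of an individual newborn brain, and the comparison asks how loss of Chd5 alters transcription. The growth protocol gives postnatal day 1 for every culture, whereas the age entries read day 1 and day 2 in +/+ and day 3 and day 4 in Chd5-/-. By those entries, age and genotype cannot be told apart.

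Proteins of this network act in pairs. Max pairs with Myc or Mycn, and the pair binds the DNA element CACGTG, the E-box, and activates genes of growth, ribosome production and division. The same Max pairs with Mxd1, Mxi1, Mxd3, Mxd4 or Mnt, which bind the same element and recruit Sin3 corepressors with histone deacetylases, and for this they are called Myc antagonists. Mga also pairs with Max and is the DNA-binding scaffold of a Polycomb complex, PRC1.6. Mlx is a relative of Max that pairs with some of the antagonists and with the glucose-sensing proteins Mlxip and Mlxipl. In the developing brain, Mycn is known for expanding embryonic progenitors, and Mxd genes are known for rising as cells leave the cycle.

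The promoters of the network are shown first, because several of its genes carry in their own promoter the element that the proteins bind. RefSeq promoter windows, from 250 bases before to 50 bases after a start site in GRCm38.p6, were matched for 9 of the 10 genes, all but Myc. CACGTG, which reads the same on both strands, was in the window of 4 of them, Mxd4, Mnt, Mlx and Max. Of all 27025 genes with windows of this length, 8.09% held it. By window it was in 4 of the 11 of the members, and in 7.15% of all 32851. The stretches below run 5′ to 3′ on the strand of the gene and stop before the exons of the GENCODE annotation. The Max stretch ends with the element itself, which spans the RefSeq start site. Capitals mark CACGTG.
Mxd4, chr5:34187721-34187960, minus strand: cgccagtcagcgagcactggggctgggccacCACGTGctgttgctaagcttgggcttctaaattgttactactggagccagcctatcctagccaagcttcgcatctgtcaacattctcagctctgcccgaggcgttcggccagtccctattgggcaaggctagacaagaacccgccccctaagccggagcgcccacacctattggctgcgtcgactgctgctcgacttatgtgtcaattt
Mnt, chr11:74830674-74830919, plus strand: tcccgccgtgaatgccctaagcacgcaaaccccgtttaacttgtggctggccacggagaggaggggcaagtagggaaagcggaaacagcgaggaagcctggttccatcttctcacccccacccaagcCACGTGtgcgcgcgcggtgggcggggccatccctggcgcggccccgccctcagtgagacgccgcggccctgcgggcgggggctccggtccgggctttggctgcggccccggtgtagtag
Mlx, chr11:101087040-101087276, plus strand: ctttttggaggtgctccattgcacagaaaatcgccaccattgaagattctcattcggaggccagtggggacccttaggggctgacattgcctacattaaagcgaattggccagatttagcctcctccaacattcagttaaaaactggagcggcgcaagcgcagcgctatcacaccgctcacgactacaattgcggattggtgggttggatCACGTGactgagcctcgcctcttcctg
Max, chr12:76962246-76962498, minus strand: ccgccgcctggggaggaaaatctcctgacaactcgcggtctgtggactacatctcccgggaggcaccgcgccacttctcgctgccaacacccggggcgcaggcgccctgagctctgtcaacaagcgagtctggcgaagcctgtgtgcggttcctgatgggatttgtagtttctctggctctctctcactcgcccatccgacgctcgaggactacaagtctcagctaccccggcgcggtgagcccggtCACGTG
Counted from the start site, the first base of the element was at -219 in Mxd4, -123 in Mnt, -40 in Mlx and -3 in Max. The windows of Mga, Mxd1, Mycn, Mxd3 and Mxi1, the last with 3 start sites, did not hold these letters.

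The 4 libraries were first compared as wholes. Chd5 was at 0.39 and 0.37 TPM in the +/+ cultures and at 0.06 and 0.04 TPM in the Chd5-/- cultures. Over the 12576 rows that reached a mean of 1 TPM, Spearman's rank correlation was 0.974 for the +/+ pair, 0.904 for the Chd5-/- pair and 0.904 to 0.925 across genotypes. The median of all rows was 0.34 higher in Chd5-/- NSCs on the log2(TPM + 1) scale, and 0.01 higher after median-of-ratios scaling, so differences are given below also relative to that median. All 9 listed neural stem cell markers were present, with summed levels of 9818 and 8143 TPM in the +/+ cultures and 3968 and 6854 TPM in the Chd5-/- cultures. Fabp7 held the largest part of each sum, at 5891.59 and 4315.73 against 1938.77 and 3822.43 TPM. In both Chd5-/- cultures 4 were lower, Vim, Sox2, Fabp7 and Slc1a3, and 1 was higher, Egfr, against 13.0% and 46.3% of all rows tested. Sox2 nearly touched, with 438.99 TPM in +/+ replicate 1 and 432.19 TPM in Chd5-/- replicate 2. Nes, Pax6, Msi1 and Prom1 overlapped between genotypes. Summed microglial markers stayed at or under 0.62 TPM in every sample, with 2 of 6 measured. Mesenchymal markers reached 12.2 TPM in Chd5-/- replicate 1 against at most 0.17 TPM elsewhere, and the neuronal nuclear marker Rbfox3 reached at most 0.07 TPM. Astrocyte markers summed to 551 and 839 TPM in +/+ and to 466 and 1069 TPM in Chd5-/- cultures, and oligodendrocyte-lineage markers to 571 and 631 TPM against 504 and 928 TPM. The neuronal list, mostly Map2, summed to 507 and 518 TPM against 372 and 798 TPM. Of its 7 genes 4 were higher in both Chd5-/- cultures and 0 lower in both, against 46.3% and 13.0% of all rows tested. The 4 were Tubb3, Stmn2, Snap25 and Syt1, with Syt1 at 0.73 and 0.73 against 2.21 and 7.62 TPM. Tubb3, Stmn2 and Snap25 were low, at or under 2.98 TPM in every sample. The endothelial list, with 3 of 5 measured and mostly Flt1, summed to 4.91 and 19.6 TPM against 1.72 and 1.12 TPM. Its other measured genes, Pecam1 and Kdr, stayed at or under 0.59 TPM in every sample. The part of these shifts in the results was not tested, and in bulk RNA fewer cells of a type and less RNA per cell cannot be told apart.

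Between the genotypes, Mxd4, Mnt, Mxd1 and Mxi1 were all higher in both Chd5-/- cultures than in either +/+ culture, at 1.95 to 3.01 times the +/+ mean. Mxd3, at 2.25 times but with values that nearly touch, and Max were also higher in both. So were 46.3% of all rows tested. Myc itself, Max, Mlx and Mga differed by a factor of 1.05 to 1.24, and Mycn was scarce in every sample. As tested with limma on log2(TPM + 1), 0 of the 9 members tested passed an adjusted p-value of 0.05, while 4 had an unadjusted p-value under 0.05, namely the antagonists Mxd4, Mnt, Mxi1 and Mxd1, each higher in Chd5-/- NSCs. Over all rows tested, 0.0557% passed the adjusted threshold, and at an unadjusted p-value under 0.05 21.9% were higher and 2.27% lower. Under median-of-ratios scaling the members under 0.05 were Mxd4 and Mnt, against 12% of rows higher and 10.4% lower. After quantile normalization they were Mxd4 and Mxi1, against 8.77% and 8.14%. The same pair, Mxd4 and Mxi1, was under 0.05 after removal of trends with GC content and transcript length (detrending), against 5.11% and 6.42%.

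**Figure D1:**
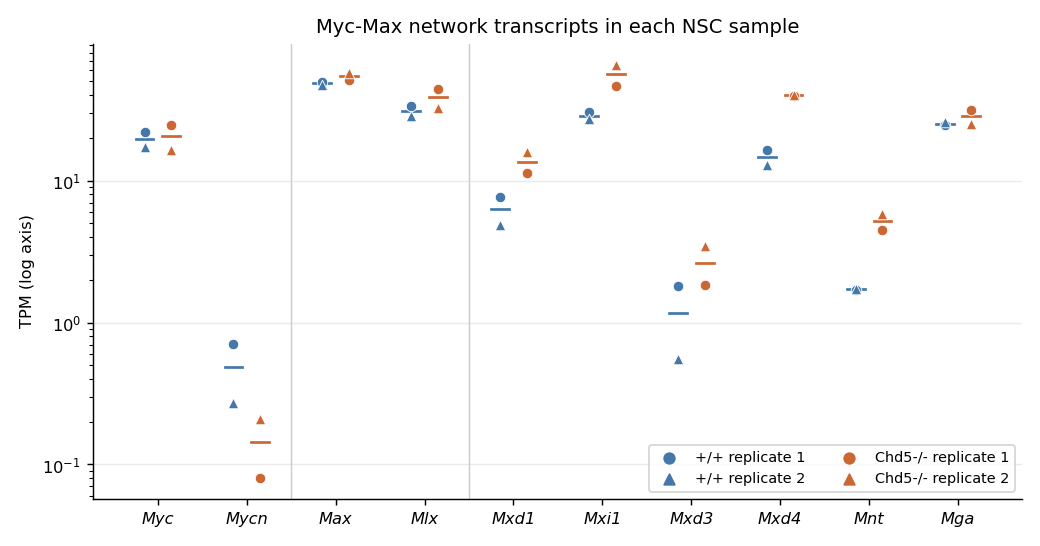
TPM of the 10 network genes on a log axis, with circles for replicate 1 and triangles for replicate 2, +/+ cultures in blue and Chd5-/- cultures in orange, and a bar at each group mean (n = 2). The samples separate by genotype most clearly for Mxd4 and Mnt, and they are mixed for Myc, Mlx and Mga.

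Of the activators, Myc (GRCm38 chromosome 15, 61985391 to 61990374, plus strand), the growth-promoting partner of Max, was at 22.20 and 17.26 TPM in the +/+ cultures and at 24.71 and 16.57 TPM in the Chd5-/- cultures. The groups overlapped fully, since the Chd5-/- cultures held both the highest and the lowest value. The difference in log2(TPM + 1) was 0.05 (standard error 0.31, 95% interval -0.73 to 0.82, limma adjusted p = 0.940), an interval that still allows a sizeable change in either direction. Relative to the median of all rows Myc was at -0.29, and after detrending the difference was -0.64 (limma adjusted p = 0.431), and both Chd5-/- values then lay below both +/+ values. Mycn (chromosome 12, 12936093 to 12941914, minus strand), the embryonic relative of Myc, was at 0.71 and 0.27 TPM in +/+ and at 0.08 and 0.21 TPM in Chd5-/- NSCs. It was lower in both Chd5-/- cultures, but its mean was under the minimum for testing, so that its difference of -0.37 has no test. The third Myc gene, Mycl, was no member of the chosen set. Mycl was at 5.16 and 2.13 TPM in +/+ and at 6.66 and 36.92 TPM in Chd5-/- cultures, a difference of 1.96 (limma adjusted p = 0.225) in which Chd5-/- replicate 1 lay close to +/+ replicate 1.

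Max (chromosome 12, 76937269 to 76962201, minus strand), the shared partner, was the most abundant member in the +/+ cultures with 49.99 and 47.23 TPM, and had 51.31 and 57.81 TPM in the Chd5-/- cultures. Its difference of 0.16 (95% interval -0.39 to 0.71, limma adjusted p = 0.669) was smaller than the median of all rows. Mlx (chromosome 11, 101087277 to 101092207, plus strand), the alternative partner, was at 33.75 and 28.68 TPM in +/+ and at 44.53 and 32.66 TPM in Chd5-/- cultures. These values overlapped, with a difference of 0.29 (95% interval -0.38 to 0.95, limma adjusted p = 0.532). The exons of Mlx share 385 bases with Psmc3ip on the opposite strand, which was between 6.03 and 12 TPM, and whether the counting used the strand is not given in the sources used here.

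Mxd4 (chromosome 5, 34173883 to 34187720, minus strand), an antagonist expressed in many differentiating tissues, had the largest difference of the members in log2(TPM + 1). It was at 16.46 and 13.00 TPM in the +/+ cultures and at 39.79 and 40.07 TPM in the Chd5-/- cultures. The groups were far apart and the Chd5-/- cultures nearly equal, giving 14.7 ± 2.45 against 39.9 ± 0.198 TPM (SD, n = 2 per genotype). The difference was 1.39 (standard error 0.24, 95% interval 0.77 to 2.01, limma adjusted p = 0.120), or 1.05 above the median of all rows, and 92.2% of the rows tested had a smaller difference. Median-of-ratios scaling gave 1.03, quantile normalization 1.06 and detrending 1.00. The exons of Mxd4 share 514 bases with an antisense gene, Gm42846, that was not analysed here.

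Mxi1 (chromosome 19, 53310518 to 53375810, plus strand), also named Mxd2, was the most abundant antagonist. It had 30.33 and 27.11 TPM in the +/+ cultures and 46.45 and 65.71 TPM in the Chd5-/- cultures, with no overlap and a wider spread in Chd5-/- NSCs. The difference was 0.92 (standard error 0.27, limma adjusted p = 0.144), 0.56 after median-of-ratios scaling and 0.76 after detrending. The exons of Mxi1 share 194 bases with the opposite-strand gene Gm10197, not analysed here. Mxd1 (chromosome 6, 86647042 to 86669161, minus strand), the founding antagonist, was at 7.69 and 4.89 TPM in +/+ and at 11.33 and 15.86 TPM in Chd5-/- cultures. It did not overlap either, with a difference of 1.01 (standard error 0.34, limma adjusted p = 0.172) that was 0.68 after median-of-ratios scaling and 0.58 after detrending.

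Mnt (chromosome 11, 74830920 to 74845725, plus strand), the broadly expressed antagonist that also pairs with Mlx, was low, at 1.70 and 1.73 TPM in +/+ and at 4.47 and 5.87 TPM in Chd5-/- cultures. Its mean was 3.01 times the +/+ mean, with a difference of 1.17 in log2(TPM + 1) (standard error 0.32, limma adjusted p = 0.135). Mnt is also the member of highest GC content, at 59.5%, and after detrending its difference was 0.20 and its samples overlapped. Mxd3 (chromosome 13, 55325168 to 55329823, minus strand), the antagonist known from cycling cells, was at 1.80 and 0.55 TPM in +/+ and at 1.84 and 3.45 TPM in Chd5-/- cultures. These values nearly touch, the difference of 0.77 (limma adjusted p = 0.359) was smaller than the gap of 0.85 within the +/+ pair, and it became -0.13 after detrending. Its exons share 105 bases with the opposite-strand gene Prelid1, which was at 55.80 and 36.06 TPM in +/+ and at 149.37 and 119.57 TPM in Chd5-/- cultures. The part of Prelid1 reads in the low Mxd3 values was not tested.

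Mga (chromosome 2, 119897228 to 119969581, plus strand), the longest member and the one of lowest GC content at 42.2%, was at 24.74 and 25.76 TPM in +/+ and at 31.45 and 25.28 TPM in Chd5-/- cultures. Its values overlapped, with a difference of 0.15 (95% interval -0.46 to 0.77, limma adjusted p = 0.718).

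**Figure D2:**
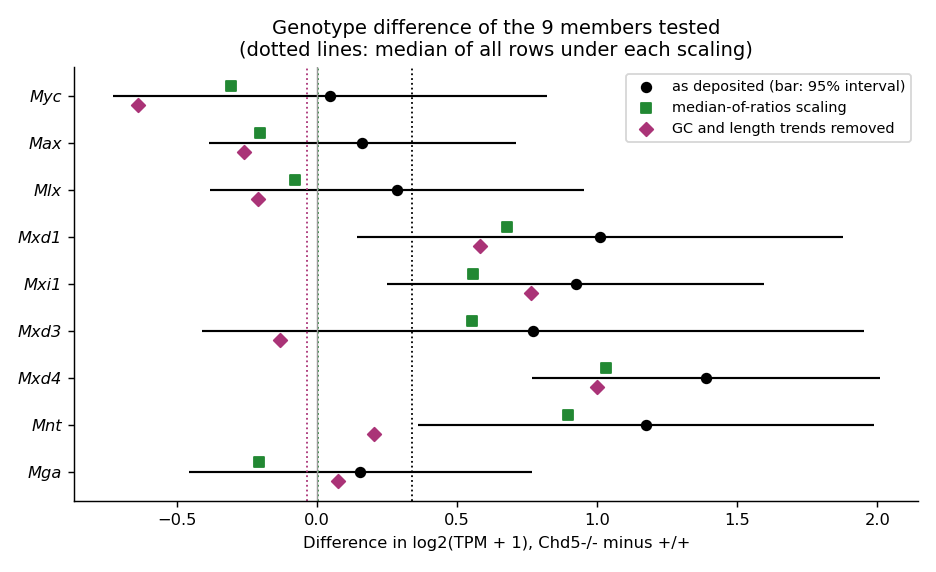
Difference in log2(TPM + 1) between Chd5-/- and +/+ NSCs for the 9 members tested (horizontal axis), as deposited with the 95% interval of limma (black circles), after median-of-ratios scaling (green squares) and after detrending for GC content and length (purple diamonds). Dotted lines give the median of all rows under each. Mxd4, Mxi1, Mxd1 and Mnt lie to the right of these medians in all 3, Mnt at 0.20 after detrending, and Mxd3 moves to -0.13 after detrending.

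Over the 10 members as deposited, both Chd5-/- cultures were above both +/+ cultures in 6 and below them in 1. The same held for 46.3% and 13.0% of all rows tested. The 6 were Max and the 5 Sin3-recruiting antagonists, and the 1 that was lower was Mycn. After median-of-ratios scaling 4 of the 9 tested members were higher without overlap, namely Mxd1, Mxi1, Mxd4 and Mnt, and 1 was lower, Max, against 30.1% and 29.8% of all rows. After quantile normalization the same 4 genes were higher and 0 lower, against 24.2% and 30.1%. After detrending 3 were higher, namely Mxd1, Mxi1 and Mxd4, and 3 were lower, namely Myc, Max and Mlx, against 20.6% and 26.9% of all rows. The median difference of the 9 members was 0.77 against 0.34 for all rows as deposited, 0.55 against 0.01 after median-of-ratios scaling, and 0.07 against -0.04 after detrending. As deposited and after median-of-ratios scaling this median is the value of Mxd3 and no typical shift of the network. As deposited, Myc, Max, Mlx and Mga lay below it at 0.05 to 0.29, and Mxi1, Mxd1, Mnt and Mxd4 above it at 0.92 to 1.39.

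The order of the levels changed in the middle of the list. In the +/+ cultures it ran from Max at 48.6 TPM through Mlx, Mxi1, Mga, Myc at 19.7 TPM, Mxd4 at 14.7 TPM, Mxd1, Mnt and Mxd3 to Mycn at 0.490 TPM. There the sample values of Mlx and Mxi1 overlapped, as did those of Mnt and Mxd3 and of Mxd3 and Mycn, and every other pair of neighbours was separate. In the Chd5-/- cultures Mxi1 at 56.1 TPM and Max at 54.6 TPM overlapped at the top, followed by Mxd4 at 39.9 TPM and Mlx at 38.6 TPM, which overlapped too. Then came Mga, Myc at 20.6 TPM, Mxd1, Mnt, Mxd3 and Mycn, each separate from the next. Mxd4 thus lay below Myc in both +/+ cultures and above it in both Chd5-/- cultures.

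A ratio of members within a culture does not change when each library is multiplied by a factor of its own. Quantile normalization and detrending shift genes by different amounts, so the ratios below hold for the values as deposited. Mxd1, Mxi1, Mxd3, Mxd4 and Mnt together had 2.53 and 2.70 times the TPM of Myc and Mycn in the +/+ cultures. The ratio was 4.19 and 7.80 in the Chd5-/- cultures. Both were higher, but they also differed from each other by more than either +/+ culture differed from the lower of them. With Mycl counted on the Myc side the ratio was 2.07 and 2.40 in +/+ and 3.30 and 2.44 in Chd5-/- cultures, so the separation was then reduced to the gap between 2.40 and 2.44. Set against Max, the partner that both sides share, the antagonists summed to 1.16 and 1.00 times its TPM in +/+ and to 2.02 and 2.27 times in Chd5-/- cultures. Mxd4 alone was at 0.329 and 0.275 times Max against 0.775 and 0.693 times. Myc was at 0.444 and 0.365 times Max in +/+ and at 0.482 and 0.287 times in Chd5-/- cultures, which overlap. For the ratio of Mxd4 to Max the exact two-sided permutation test gave p = 0.33, the smallest that 2 cultures against 2 allow.

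**Figure D3:**
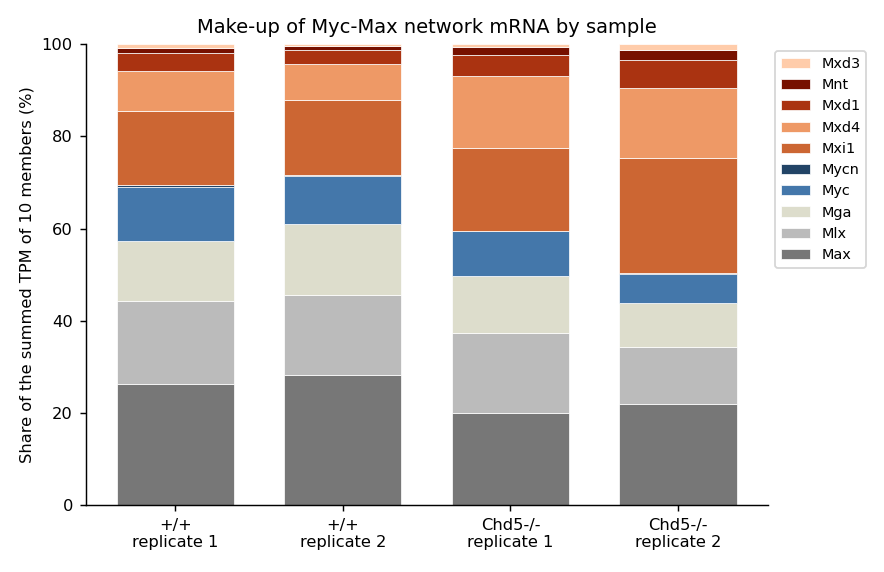
Share of the summed TPM of the 10 members held by each gene (vertical axis, percent), 1 bar per sample, with Max, Mlx and Mga in grey and beige, Myc and Mycn in blues and the 5 Sin3-recruiting antagonists in reds and oranges. These antagonists held 30.6% and 28.4% in the +/+ cultures and 40.6% and 49.7% in the Chd5-/- cultures, while the share of Myc went from 11.7% and 10.4% to 9.65% and 6.29%. A share also falls when other members rise. The level of Myc overlapped between genotypes, at 22.20 and 17.26 TPM in +/+ and 24.71 and 16.57 TPM in Chd5-/- cultures.

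By the 4 sample values, the rows most like Myc among 4424 rows of similar level were 1110004E09Rik, Ube2j2 and St7. The root mean square difference in log2(TPM + 1) over the 4 cultures was 0.069 for 1110004E09Rik, 0.073 for Ube2j2 and 0.080 for St7. For Mycn no row could meet the limits of level, because rows compared had to average at least 1 TPM, which is more than 2-fold above the mean of Mycn.

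The genes that work with the network were followed in 7 lists of cofactors and targets, and in a list of 3 further network genes, Mycl, Mlxip and Mlxipl. Of 104 tested genes in 8 lists, 0 passed an adjusted p-value of 0.05 with limma, and 27 had an unadjusted p-value under 0.05, of which 26 were higher and 1 lower in Chd5-/- NSCs. This is close to the background of 21.9% higher and 2.27% lower over all rows, against which the counts below are to be read, and 8850 of the 12576 rows tested had a positive difference. The 14 coactivators and binding partners of Myc all had a positive difference, with a median of 0.72, and 7 had an unadjusted p-value under 0.05. Among them Zbtb17, which tethers Myc to promoters it represses, was at 0.93 and 0.41 TPM in +/+ and at 3.08 and 3.52 TPM in Chd5-/- cultures. The helicase gene Ruvbl2 was at 10.30 and 5.97 TPM against 24.60 and 17.42 TPM. The chromatin subunit gene Smarcb1 was at 41.03 and 25.61 TPM against 65.26 and 69.16 TPM, and Cdk9, the kinase that releases paused polymerase, at 7.70 and 6.76 TPM against 15.55 and 13.41 TPM. These 4, named for their small p-values, did not overlap between genotypes, as was so for the 46.3% of all rows that were higher, with limma adjusted p-values of 0.130 for Zbtb17, 0.138 for Ruvbl2, 0.143 for Smarcb1 and 0.148 for Cdk9. After detrending the median of the list was -0.02, 0 of its genes had an unadjusted p-value under 0.05, and Ruvbl2 overlapped.

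Of the 10 corepressor genes through which Mxd proteins and Mnt act, 2 had an unadjusted p-value under 0.05, both higher, a share below the background of 21.9%. The list median of 0.23 lay under that of all rows, and it was -0.14 under median-of-ratios scaling and 0.01 after detrending. Sin3b, the scaffold bound by Mxd proteins and Mnt, was at 51.23 and 39.79 TPM in +/+ and at 93.89 and 92.02 TPM in Chd5-/- cultures (difference 1.03, limma adjusted p = 0.121). After detrending its difference was 0.21. Of 9 genes of the Mga complex 3 had an unadjusted p-value under 0.05, of which 2 were higher and 1 lower, against 21.9% and 2.27% of all rows. The median was 0.05, and it was -0.32 under median-of-ratios scaling and -0.16 after detrending. Ring1, a ubiquitin ligase subunit, was at 2.78 and 1.67 TPM against 7.37 and 6.73 TPM, and the methyl-lysine reader L3mbtl2 at 4.35 and 3.12 TPM against 10.33 and 7.11 TPM. Their differences of 1.34 and 1.03 had limma adjusted p-values of 0.128 and 0.166. After detrending these differences were 0.44 and 0.31, and L3mbtl2 overlapped. Yaf2, another subunit, went the other way, at 85.42 and 102.43 TPM in +/+ and at 57.82 and 60.68 TPM in Chd5-/- cultures. Its difference of -0.65 (limma adjusted p = 0.172) was -1.02 after median-of-ratios scaling and -0.83 after detrending.

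Of 12 genes that set the stability of the Myc protein 3 had an unadjusted p-value under 0.05, all higher, a share near the background of 21.9%, and the list median of 0.34 equalled that of all rows. Axin1, a scaffold for Myc breakdown, was at 9.24 and 7.06 TPM in +/+ and at 18.91 and 17.32 TPM in Chd5-/- cultures. The ubiquitin ligase gene Stub1 was at 14.31 and 12.49 TPM against 39.46 and 24.61 TPM, and Aurka, the kinase that shields Mycn, at 10.87 and 6.52 TPM against 16.84 and 24.47 TPM. All 3, named for their small p-values, were higher without overlap, with limma adjusted p-values of 0.129, 0.134 and 0.153. Of the whole list 6 of 12 were higher without overlap, against 46.3% of all rows tested. After detrending Axin1 was at 0.22, Stub1 at 0.08 with overlap, and Aurka at 0.62.

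The 43 tested genes that Myc is known to activate, mostly of ribosome production and metabolism, had a median of 0.28, under that of all rows. Of these, 29 had a positive and 14 a negative difference, and 5 had an unadjusted p-value under 0.05, all higher, a smaller share than the 21.9% of all rows. They were Cdk4, Pes1, Slc19a1, Mybbp1a and Rrp9, the last named after its values were seen. Differences in the list ran from -1.42 to 1.14. Under median-of-ratios scaling 0 genes of the list were higher and 2 lower at an unadjusted p-value under 0.05, against 12% and 10.4% of all rows. Cdk4, the kinase that starts the cycle with D-type cyclins, was at 130.01 and 80.85 TPM in +/+ and at 173.86 and 295.84 TPM in Chd5-/- cultures (difference 1.14, limma adjusted p = 0.167). Pes1, of ribosome assembly, was at 24.64 and 14.29 TPM against 40.51 and 35.57 TPM, and Mybbp1a, a nucleolar protein, at 24.11 and 16.92 TPM against 40.90 and 31.60 TPM. Slc19a1, a folate carrier, was at 3.39 and 2.97 TPM against 9.74 and 5.85 TPM. After detrending Pes1 was at 0.53, and Cdk4 at 0.44, Slc19a1 at 0.29 and Mybbp1a at 0.15 overlapped between genotypes. The list median was -0.06 under median-of-ratios scaling, -0.23 after detrending, -0.12 without Chd5-/- replicate 1 and 0.72 without Chd5-/- replicate 2, so its sign depended on the scaling and on which Chd5-/- culture was used.

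Of 8 genes that Myc is known to repress 2 had an unadjusted p-value under 0.05, both higher, a share near the background of 21.9%, and both with by far the larger value in Chd5-/- replicate 1. Cdkn1c, a brake on cyclin-dependent kinases, was at 0.18 and 0.15 TPM in +/+ and at 6.02 and 1.13 TPM in Chd5-/- cultures, and Ndrg1 at 1.41 and 3.35 TPM against 79.23 and 6.75 TPM. Their differences of 1.73 and 2.95 had limma adjusted p-values of 0.187 and 0.195. The list median was 0.23, and it was -0.09 under median-of-ratios scaling, -0.39 after detrending and 0.89 without Chd5-/- replicate 2.

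**Figure D4:**
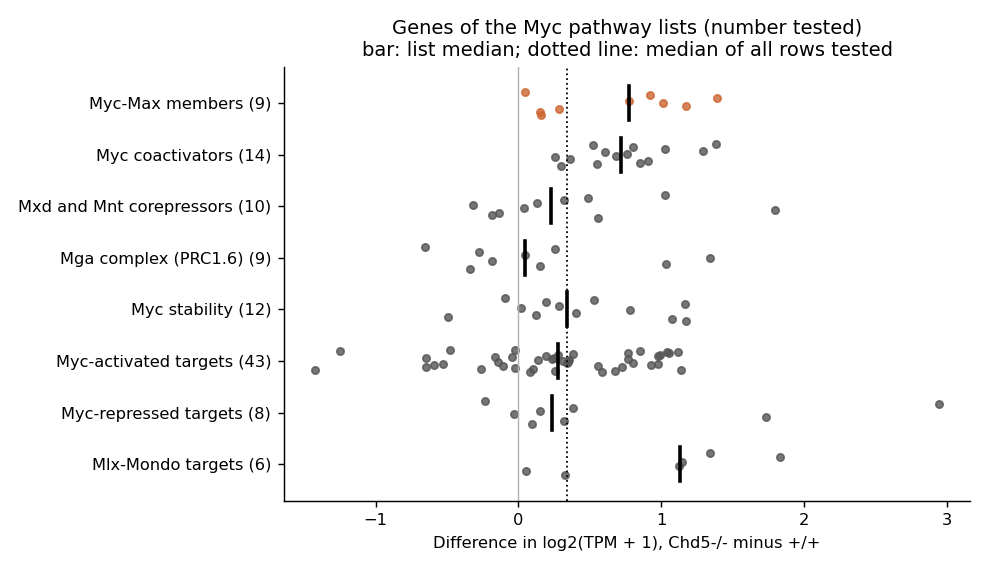
Difference in log2(TPM + 1) between Chd5-/- and +/+ NSCs (horizontal axis) for each tested gene of the network and of 7 lists of cofactors and targets, 1 point per gene, with a bar at each list median and a dotted line at the median of all rows, 0.34. The Mlx-Mondo targets have the highest median, 1.13, and the Myc-activated targets lie around the dotted line with a median of 0.28.

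Of the 7 lists of cofactors and targets, the targets of Mlx and its Mondo partners had the highest median. The list of 3 further network genes had a median of 1.41 over the 2 tested, Mycl and Mlxip. Mlxip, or MondoA, the partner of Mlx that answers to glucose phosphate, was at 4.76 and 3.59 TPM in +/+ and at 8.59 and 8.13 TPM in Chd5-/- cultures (difference 0.86, limma adjusted p = 0.174), while its relative Mlxipl stayed at or under 0.69 TPM. Of 8 listed target genes 6 were tested, and 4 of them were higher at an unadjusted p-value under 0.05, against 21.9% of all rows, with a list median of 1.13 against 0.34 for all rows. After detrending 2 were higher at that threshold, Txnip and Gpd1, and 1 was lower, Acly, against 5.11% and 6.42% of all rows. Txnip, the best known target and a brake on glucose uptake, was at 123.79 and 120.08 TPM in +/+ and at 286.97 and 334.78 TPM in Chd5-/- cultures, a gap larger than the spread within either genotype. Its difference was 1.34 (standard error 0.22, 95% interval 0.79 to 1.89, limma adjusted p = 0.120), or 0.97 under median-of-ratios scaling and 1.03 after detrending. Gpd1, which links glycolysis to glycerol lipids, was at 3.09 and 2.97 TPM against 13.97 and 12.75 TPM, a difference of 1.83 (standard error 0.28, limma adjusted p = 0.120) that was 0.94 after detrending.

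Arrdc4, a relative of Txnip, was at 16.25 and 12.84 TPM in +/+ and at 49.80 and 21.33 TPM in Chd5-/- cultures (difference 1.12, limma adjusted p = 0.207). Fasn, the fatty acid synthase gene, was at 12.07 and 7.47 TPM against 18.59 and 26.56 TPM (difference 1.14, limma adjusted p = 0.152), and 0.30 after detrending. The lipid synthesis genes Acaca and Acly had differences of 0.32 and 0.06, which were -0.07 and -0.49 after detrending. The list median was 0.78 under median-of-ratios scaling and 0.58 after detrending, against 0.01 and -0.04 for all rows.

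**Figure D5:**
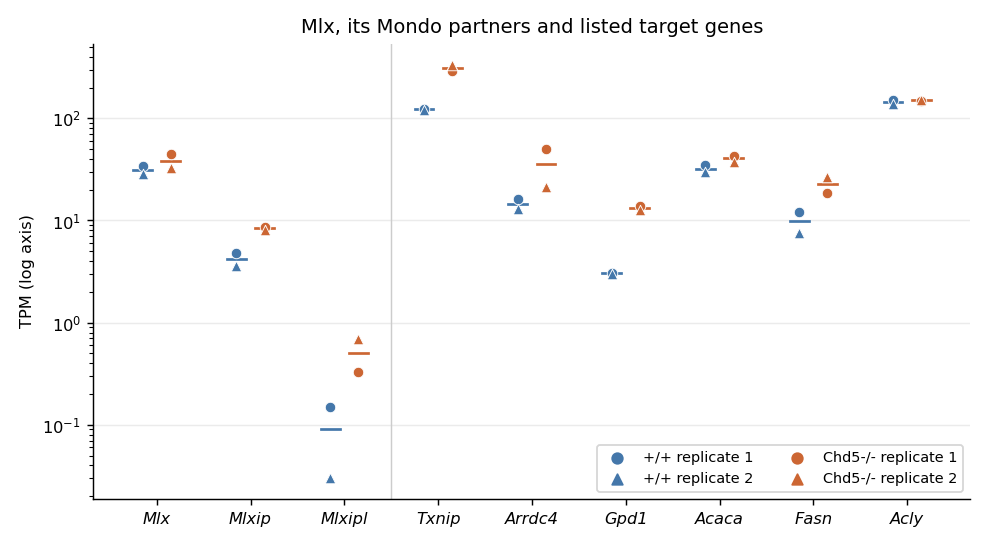
TPM on a log axis of Mlx, its partners Mlxip and Mlxipl, and the 6 listed target genes measured, with circles for replicate 1 and triangles for replicate 2, +/+ cultures in blue, Chd5-/- cultures in orange, and a bar at each group mean (n = 2). Txnip and Gpd1 separate by genotype with little spread within it, Mlx overlaps, and Acly is nearly level.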

How the data were processed

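RNA was measured in 2 +/+ and 2 Chd5-/- NSC samples from stranded mRNA libraries. The authors deposited TPM values in 1 table, and the submitters' processing notes name Bowtie2 2.2.3, RSEM 1.2.20 and build mm10. The annotation and the strand setting are not given in the sources used here. TPM keeps no read numbers, so depth is unknown, and precision rests on 2 samples per genotype. Columns were matched to samples by name.

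The 12576 rows that averaged 1 TPM or more were compared on log2(TPM + 1) with limma 3.58.1 in R 4.3.3 (lmFit, eBayes with a trend, two-sided, no other terms). Benjamini-Hochberg adjustment ran over all rows tested. Differences are Chd5-/- minus +/+ and understate changes of low genes. P-values measure only the spread between these samples.

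The members and the lists were chosen with earlier results of these data known. Named were all members, and per list up to 4 genes of smallest unadjusted p-value under 0.05 (in the list of 3, all). The values of 1 gene that met this rule are not reported here. Where a name had several rows, the one of highest mean TPM was used. Rows like Myc had a mean of at least 1 TPM that was within 2-fold of its own.

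GC content and length came from the longest GENCODE M21 transcript (GRCm38, 96.2% of rows tested), and their trends were removed by loess (span 0.5; detrending). Alternatives were pseudocounts of 0.1 and 5, no minimum or 10 TPM, scaling by median of ratios, a replicate block, quantile normalization, TPM rescaled after dropping the 20 rows of highest level, eBayes without a trend, and leaving out each sample. The fit was tested on simulated data. Python 3.11.15, pandas 2.3.3, numpy 2.4.6 and matplotlib 3.10.9 were used. Coordinates and promoters are GRCm38.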

Additional observations from a re-analysis of the deposited data

How the results depend on the processing

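Over 15 other settings Mxd4 had an unadjusted p-value under 0.05 in 15 and Mxi1 in 12 of 15, Mxd1 in 6 and Mnt in 9 of 14 each, and all kept a positive difference. With one sample left out the limma adjusted p-value of Mxd4 was 0.0474 and 0.0489 without Chd5-/- replicate 1 and 2, and 0.373 and 0.759 without +/+ replicate 1 and 2, and that of Mxi1, in the same order, 0.0430, 0.126, 0.415 and 0.774. In each such fit the lone sample is assumed to vary like the remaining pair of the other genotype, which alone gives the spread. Rows called over all genes numbered 7, and 4 with a pseudocount of 0.1, 1 after quantile normalization, 3 after detrending, and 0 with no minimum, with the replicate block and with the block and detrending together. With one sample left out they ranged from 0 (either +/+ sample) through 1086 (without Chd5-/- replicate 2) to 1247 (without Chd5-/- replicate 1). Members with an unadjusted p-value under 0.05 numbered 4, and 2 with a minimum of 10 TPM (6 members tested), median-of-ratios scaling, quantile normalization, and detrending with or without the block. The share of all rows at that threshold was not counted with the minimum of 10 TPM, with the block or with one sample left out. Counts of members or list genes under those settings therefore have no background beside them. The members' median was 0.31 with a pseudocount of 5, 0.22 with a minimum of 10 TPM, 0.17 after quantile normalization and 0.074 after detrending, with or without the block, and from 0.34 to 1.09 with one sample left out. Of the genes of the 8 lists, 27 had an unadjusted p-value under 0.05, and 17 under median-of-ratios scaling, 9 under quantile normalization, 6 after detrending, 4 with the block as well, and 2 to 37 with one sample left out.

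Signs turned as follows. Median-of-ratios scaling gave -0.31 for Myc, -0.21 for Max, -0.077 for Mlx and -0.21 for Mga. Quantile normalization gave -0.34 for Myc, -0.012 for Max and -0.16 for Mga, and TPM rescaled after dropping the 20 rows of highest level gave -0.18 for Myc, -0.071 for Max and -0.075 for Mga. Detrending, with or without the block, gave -0.64 for Myc, -0.26 for Max, -0.21 for Mlx and -0.13 for Mxd3. With one sample left out, Myc ranged from -0.23 (without Chd5-/- replicate 1) to 0.32 (without Chd5-/- replicate 2), and was at -0.13 without +/+ replicate 2. The cause was not tested.

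Deviations of same-numbered samples correlated at -0.152, and nothing shows that the numbers pair the samples. With the replicate block 3 members had an unadjusted p-value under 0.05. A block with crossed numbers, chosen after seeing the data, gave 5 rows called and 4 such members. For neither block was the share of all rows at the unadjusted threshold counted.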
